A study of Danio rerio with 6 samples.

Results

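Growth and Wnt signaling genes are represented here by 5 transcripts, those of fzd8b, wisp3, bdnf, ccnd1 and spred2b, out of 46260 transcripts counted in each library. Their transcript IDs were taken by gene symbol from the ID and symbol columns of the list of Insl3-responsive transcripts published with the study, and each was found in the counts under the same version. The members were thus selected on the difference between Insl3-treated and basal counts in these same 6 libraries, so that a difference between the conditions was a condition of entry, and the differences below describe the members without testing them. In each library 1 transcript stands for each gene. The reference tables used here do not assign other transcripts to these genes, and sums per gene were not analysed here.

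Gene expression was measured by RNA sequencing in testes of adult wild type zebrafish. In an ex vivo tissue culture, 3 testes were kept under basal conditions and 3 were exposed to zebrafish Insl3 (insulin-like 3), a peptide hormone that Leydig cells produce, at 100 ng/mL. Treatment lasted 2 days and followed 2 days of culture in which neither group received the hormone, and each testis gave 1 library. The culture holds germ cells and somatic cells together, and in such bulk tissue fewer cells of a type and less RNA per cell cannot be told apart. The labelled tissue could not be checked, since 0 of 29 germ, Sertoli and Leydig cell marker genes could be matched to a transcript here. Matching used only the symbols of the published list, so transcripts of these markers may still be among the counts.

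The Wnt pathway is driven by secreted Wnt proteins, which bind Frizzled receptors and Lrp co-receptors at the cell surface and stabilize beta-catenin, a co-activator of Tcf/Lef transcription factors. Cyclin D1 is a textbook target of this pathway in mammals, and WISP proteins of the CCN family took their name from Wnt1-inducible signaling. Growth factor receptors act in part through Ras and the kinases Raf, Mek and Erk, a cascade that Spred proteins inhibit and that also raises cyclin D1 in mammalian cells. In the testis, such signals are exchanged between somatic cells and spermatogonia.

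Total counts ranged from 20967304 to 28939006 per library, and between 42095 and 42737 transcripts had at least 1 count. Counts were scaled by edgeR's TMM factors (between 0.901 and 1.12) and library size to CPM (counts per 1000000 counts). After removal of transcripts with low counts, 36363 entered the quasi-likelihood test of edgeR, among them the 5 members. The filter asked for about 10 counts, scaled to library size, in at least 3 libraries. The ccnd1 transcript met this only in the basal libraries (13 to 28 counts, against 5 to 7 with Insl3). Its entry was thus favored by the direction in which it differed. Without the filter its log2 fold change was -1.38 (SE 0.51). The SD given with each mean is between 3 testes, and each log2 fold change is for Insl3 over basal, with its standard error (SE) from the edgeR fit. This fit tests condition alone and does not use the replicate numbers. As transcript lengths were not used, levels are compared between conditions and not between genes.

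The 3 members that were higher with Insl3 encode a receptor (fzd8b), a matricellular protein (wisp3) and a secreted growth factor (bdnf), and the 2 lower members encode a cell cycle regulator (ccnd1) and an inhibitor of the Ras-Erk cascade (spred2b). Each of the 5 separated the conditions, the 3 Insl3 values lying all above or all below the 3 basal ones. The same held for 5.22% of the 36363 tested transcripts, and the members had been selected on this difference. By size, whatever the direction, the differences ran from 1.68-fold for wisp3 (higher with Insl3) to 2.60-fold for ccnd1 (lower).

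**Figure D1:**
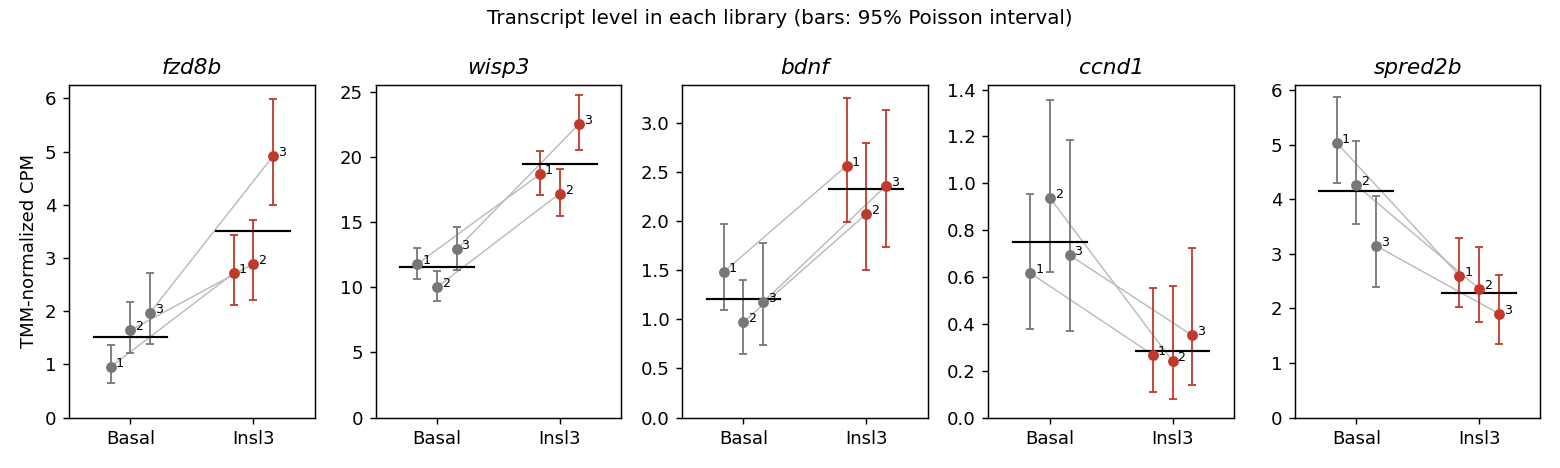
Level of each transcript in TMM-normalized CPM (vertical axes, each starting at 0) in basal (gray) and Insl3-treated (red) testes. Numbers give the replicate, thin lines join libraries with the same replicate number, horizontal bars are group means and vertical bars the 95% Poisson interval of the count. In each panel the points of the 2 conditions do not overlap, whereas the counting intervals of the nearest basal and Insl3 libraries do, except for wisp3.

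The receptor gene fzd8b (ENSDART00000056305.4, gene ENSDARG00000038569) encodes Frizzled 8b, a 7-pass membrane receptor that binds Wnt proteins through its cysteine-rich extracellular domain. Among the basal libraries, 31 reads were counted in replicate 1, 49 in replicate 2 and 37 in replicate 3, and among the Insl3 libraries 71, 60 and 98. After normalization, these were 0.957, 1.64 and 1.97 CPM under basal conditions and 2.71, 2.89 and 4.91 CPM with Insl3. The highest basal value, in replicate 3, was thus below the lowest Insl3 value, in replicate 1, and Insl3 replicate 3 stood above the other two. The group means were 1.52 ± 0.52 and 3.50 ± 1.22 CPM (SD, n = 3 each), a log2 fold change of 1.21 (SE 0.41), or 2.31-fold. Within same-numbered libraries fzd8b was higher by 1.43, 0.79 and 1.28 log2 units in replicates 1, 2 and 3, so that each pair showed the direction and replicate 2 the smallest difference.

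The secreted matricellular protein encoded by wisp3 (ENSDART00000104806.4, gene ENSDARG00000071048, now named ccn6) belongs to the CCN family, whose members bind extracellular matrix and growth factors. This transcript had the largest number of reads of the 5, with 2219 over the 6 libraries. The counts were 382, 299 and 242 in the basal libraries and 489, 357 and 450 with Insl3. On the CPM scale, the basal testes were at 11.8, 10.02 and 12.9 and the Insl3-treated ones at 18.7, 17.2 and 22.6, which left a clear gap between the groups. Before normalization the counts overlapped, since basal replicate 1 came from the deepest library. The level averaged 11.6 ± 1.46 CPM under basal conditions and 19.5 ± 2.76 CPM with Insl3 (SD, n = 3 each). The log2 fold change was 0.75 (SE 0.21), and the differences in replicates 1, 2 and 3 were nearly equal at 0.66, 0.77 and 0.80.

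Brain-derived neurotrophic factor, encoded by bdnf (ENSDART00000131009.2, gene ENSDARG00000018817), is a secreted ligand of the receptor tyrosine kinase TrkB, which signals among others through the Ras-Erk cascade. Counts of 48, 29 and 22 were found under basal conditions and of 67, 43 and 47 with Insl3. These overlapped, basal replicate 1 having more reads than Insl3 replicates 2 and 3. Normalized for library size they did not, with 1.48, 0.972 and 1.17 CPM in basal replicates 1, 2 and 3 and 2.56, 2.07 and 2.36 CPM with Insl3. The means were 1.21 ± 0.26 CPM and 2.33 ± 0.25 CPM (SD, n = 3 each), and the log2 fold change was 0.94 (SE 0.34), or 1.92-fold. All same-numbered libraries showed the difference, with 0.76, 1.03 and 0.96 log2 units in replicates 1, 2 and 3.

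The cell cycle gene ccnd1 (ENSDART00000170774.1, gene ENSDARG00000101637) encodes cyclin D1, the partner of the kinases Cdk4 and Cdk6 that phosphorylate the retinoblastoma protein in G1 phase. It was the member with the fewest reads, 80 over the 6 libraries. The basal libraries had 20, 28 and 13 counts and the Insl3 libraries 7, 5 and 7. On the CPM scale this corresponds to 0.617, 0.938 and 0.693 against 0.268, 0.241 and 0.351, so that the highest Insl3 value (replicate 3) stayed below the lowest basal one (replicate 1). The means were 0.750 ± 0.168 and 0.286 ± 0.0574 CPM (SD, n = 3 each), a log2 fold change of -1.38 (SE 0.46), or 2.60-fold lower with Insl3. Differences within replicates 1, 2 and 3 were -1.002, -1.66 and -0.84 log2 units, replicate 2 having both the highest basal and the lowest Insl3 value. With so few reads the counting error was wide. For the 5 counts of Insl3 replicate 2 the 95% exact Poisson interval runs from 1.62 to 11.7 counts, and for the 13 counts of basal replicate 3 from 6.92 to 22.2, intervals that overlap and cover counting error only.

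The inhibitor gene spred2b (ENSDART00000165625.1, gene ENSDARG00000008372) encodes a Sprouty-related protein with an EVH1 domain. Spred proteins restrain the activation of Raf by Ras in mammalian cells. In replicates 1, 2 and 3 it had 163, 127 and 59 counts without and 68, 49 and 38 counts with Insl3. Here, too, the raw counts overlapped through the shallow library of basal replicate 3. Normalized, the basal testes were at 5.03, 4.26 and 3.15 CPM and the Insl3-treated testes at 2.60, 2.36 and 1.90 CPM. The lowest basal value was 1.21 times the highest Insl3 value, the narrowest separation among the 5 transcripts. The means of 4.14 ± 0.95 and 2.29 ± 0.35 CPM (SD, n = 3 each) gave a log2 fold change of -0.86 (SE 0.31), or 1.81-fold lower with Insl3. The 3 same-numbered differences were of similar size, at -0.93, -0.83 and -0.70 log2 units.

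**Figure D2:**
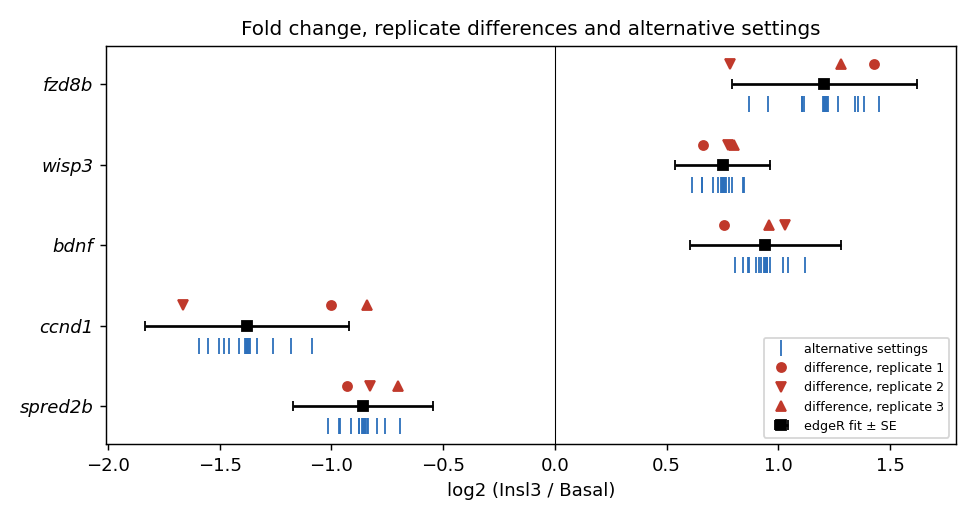
Log2 ratio of Insl3 over basal for each transcript (horizontal axis). Black squares with bars are the edgeR estimate ± SE, red symbols the differences within replicates 1 (circle), 2 (inverted triangle) and 3 (triangle), and blue ticks the 17 alternative settings. All symbols of fzd8b, wisp3 and bdnf lie above 0 and all those of ccnd1 and spred2b below it.

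At an unadjusted p under 0.05, edgeR's quasi-likelihood test called all 5 members, 3 higher and 2 lower. The same rule called 1.48% of the 36363 tested transcripts, 0.542% higher and 0.938% lower. Nothing is read from this contrast between the members and the background, because the members come from a list called on these libraries. After Benjamini-Hochberg adjustment over all tested transcripts 0 passed in this edgeR test, members included, while 538 passed before adjustment, and DESeq2 called 1 transcript after adjustment, which was not a member. With the replicate number as a block, edgeR again called all 5 members, here among 13.5% of all transcripts (4920, with 7.40% higher and 6.13% lower), and 0 after adjustment, where the smallest adjusted p of any transcript was 0.082. Groups did not overlap in CPM for 5 of the 5 members and for 5.22% of the tested transcripts (2.55% higher and 2.66% lower with Insl3). The direction was the same in the 3 same-numbered pairs for 5 of the 5 members and for 37.5% of the tested transcripts (20.5% higher and 17.0% lower). For the members this follows from the separation of their groups. On raw counts, before scaling, only fzd8b and ccnd1 separated the groups, 2 of the 5, whereas with library totals, RLE or TMM factors all 5 did. The share of all tested transcripts was computed with TMM factors only, so nothing is read from the counts under the other scalings.

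Leaving out single libraries removed several of these calls, in fits that called between 0.455% and 3.93% of all tested transcripts. These fits tested condition alone, so the pairing by replicate number was not used. With 1 testis fewer the SE also rises, so that a call can be lost with the fold change about unchanged. The wisp3 transcript kept its unadjusted call in edgeR when any 1 of the 6 libraries was left out, with log2 fold changes from 0.61 to 0.85. The fzd8b call was lost without basal replicate 1 or Insl3 replicate 3, where the log2 fold change was 0.95 and 0.87. For ccnd1 the call was lost without basal replicate 2 (log2 fold change -1.18), Insl3 replicate 1 (-1.33) or Insl3 replicate 2 (-1.26). The bdnf call was lost in 4 of the 6 fits, without basal replicates 2 (0.80) or 3 (0.92) or Insl3 replicates 1 (0.87) or 3 (0.91). The spred2b call was also lost in 4, without basal replicates 1 (-0.69) or 2 (-0.84) or Insl3 replicates 2 (-0.88) or 3 (-0.76). No direction changed in any of these fits, which the separation of the groups in CPM largely fixes.

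The spread between testes of 1 condition enters the test behind such calls, so that transcripts that vary little are called more readily, and it is given as a description. The coefficient of variation (CV) of fzd8b was 34.0% under basal conditions and 34.8% with Insl3, above the 16.01% and 11.4% that Poisson counting alone would give at these counts. For wisp3 it was 12.6% and 14.2%, against 5.70% and 4.81% from counting. The basal CV of spred2b was 22.8% (counting 9.27%), and the value with Insl3, 15.4%, was close to the counting error of 13.9%. Separate testes are set here against counting error alone, which biological differences between them can only add to. For bdnf the CV was 21.2% and 10.6%, against 17.4% and 13.8% from counting. In ccnd1 it was 22.4% and 20.0%, against 22.2% and 39.7%, so that the 3 Insl3 libraries were closer to each other than counting error alone would leave them on average. Pooled over both conditions, the CV of all 5 members was below the median of 1000 transcripts of similar level. It was 34.4% against 35.2% for fzd8b, 13.4% against 23.5% for wisp3 and 16.8% against 36.5% for bdnf. For ccnd1 it was 21.2% against 50.6% and for spred2b 19.5% against 31.9%. The members were selected on a call that a low spread favors, so nothing is read from this.

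Libraries with the same replicate number resembled each other across conditions to a degree that differed between the members and was least in ccnd1. For spred2b, replicate 1 was above the group mean in both conditions (by 0.30 and 0.19 log2 units) and replicate 3 below it in both (-0.36 and -0.24). The fzd8b transcript had the opposite order, with replicate 1 below the mean (-0.57 and -0.31) and replicate 3 above it (0.41 and 0.53). Its replicate 2 was on opposite sides (0.16 and -0.22). In bdnf, replicate 1 was high (0.30 and 0.14) and replicate 2 low (-0.27 and -0.16) in both conditions. In wisp3, replicate 2 was low (-0.20 and -0.17) and replicate 3 high (0.16 and 0.22), with replicate 1 near the mean (0.03 and -0.05). For ccnd1 only replicate 1 deviated in the same direction, and the values of replicate 2 were on opposite sides (0.31 and -0.18). The ccnd1 libraries had 5 to 28 counts, where counting alone gives a CV of 22.2% (basal) and 39.7% (Insl3). A lack of resemblance in ccnd1 cannot be told apart from this counting error. Of 15 pairs of deviations, 3 for each member, 10 had the same sign. The deviations of a group sum to 0, so these pairs are not independent.

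**Figure D3:**
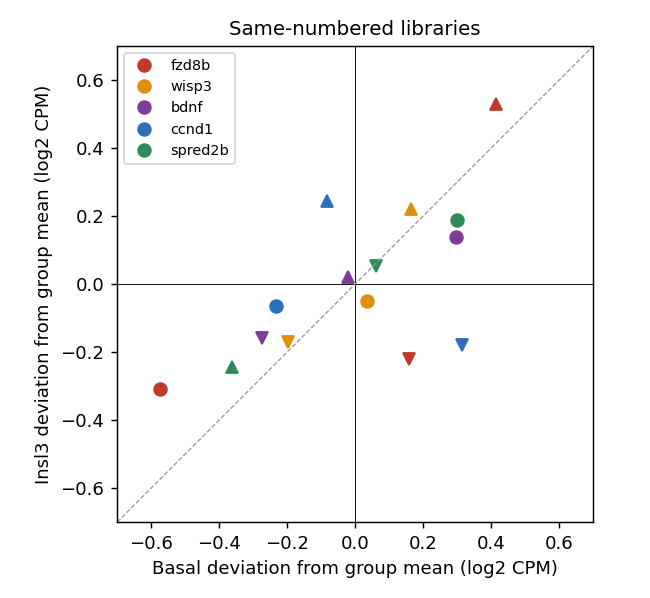
Deviation of each library from its group mean in log2 CPM, basal on the horizontal and Insl3 on the vertical axis, for replicates 1 (circle), 2 (inverted triangle) and 3 (triangle). Colors mark the 5 transcripts and the dashed line marks equal deviations. The 3 points of spred2b follow this line, as do fzd8b replicates 1 and 3 and wisp3 replicates 2 and 3. Replicates 2 and 3 of ccnd1 and replicate 2 of fzd8b lie in the quadrants of opposite sign, as do, close to the center, replicate 1 of wisp3 and replicate 3 of bdnf.

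Over the 6 libraries, log2 CPM of the 10 pairs of members correlated with an absolute Pearson r between 0.65 and 0.98, which the separation of the conditions largely fixes. Once the group means were removed, 5 of the 10 pairs had the opposite sign. The pair fzd8b and spred2b stayed inverse, with r = -0.98 over the libraries and r = -0.92 for the deviations from the group means. By contrast, ccnd1 and fzd8b were inverse over the libraries (r = -0.65) but deviated together within the conditions (r = 0.69), and wisp3 and ccnd1 showed nearly no common deviation (r = 0.02). These coefficients describe 6 libraries, in each of which both genes of a pair share the depth and the scaling factor, and carry no test. Same-numbered libraries also shared part of their deviations (r = 0.73, 0.58 and 0.60 for replicates 1, 2 and 3 over all tested transcripts). The 6 deviations of a gene are therefore not independent, the r of -0.92 included.

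The other genes of the pathways could mostly not be followed. Of 189 genes listed for Wnt ligands, Frizzled receptors and co-receptors, Wnt inhibitors, transducers and targets, the CCN family, cyclin D and its partners, Spred and Sprouty proteins, the Ras-Erk cascade and neurotrophins with their receptors, the 5 members were the only ones with a matched transcript. Matching used only the symbols of the study's list, so the other genes are not in it under their symbols. Their transcripts may still be among the counts. For the ligands of Frizzled 8b, for the Bdnf receptors and for the kinases that cyclin D1 binds, no value is therefore given. Both flanking protein-coding genes of each member in the RefSeq annotation of assembly GRCz12tu were looked up, and none is a member or in the study's list.

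The list does hold 8 other genes of growth signaling, picked here after values had been seen and, like the members, called on these libraries, so that their counts describe the choice. Of these, 6 were lower and 2 higher with Insl3. Besides the genes described next, map3k20, stat3, phlpp2 and igf2bp2b were lower, with log2 fold changes of -1.45 (SE 0.47), -0.52 (SE 0.22), -0.99 (SE 0.35) and -0.95 (SE 0.34). Around the Ras-Erk cascade, the Egf receptor ligand hbegfa was lower, with 17.2, 15.7 and 22.3 CPM under basal conditions and 10.4, 14.1 and 10.9 CPM with Insl3 (log2 fold change -0.64, SE 0.23). The transcription factor gene elk1, whose product is phosphorylated by Erk in mammals, had 5.37, 5.06 and 1.71 CPM under basal conditions and 2.45, 1.30 and 1.203 CPM with Insl3, so that its groups overlapped. Since these 2 genes were picked with their values known, nothing is read from the direction they share with spred2b. The exchange factor gene rasgrp2 had a log2 fold change of 1.097 (SE 0.49) that did not pass without the block. Related to Wnt signaling, tcim, a regulator of beta-catenin activity in mammals, was higher with Insl3, at 8.87, 10.5 and 11.5 CPM against 5.37, 4.89 and 7.47 CPM (log2 fold change 0.81, SE 0.26).

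For each member, the 3 transcripts most like it were sought by Pearson r of log2 CPM over the 6 libraries, among the listed transcripts with a gene symbol and a mean of at least 1 CPM (341 candidates, 342 for ccnd1). Since these were all called on the same contrast, high values were built in, and the coefficients ran from 0.94 to 0.999. The log2 CPM used for this choice contain the deviations from the group means. High r for the deviations was therefore favored by the choice as well, and nothing is read from it. Nearest to fzd8b were cu138548.2, rlbp1b and snx19a (r = 0.98 to 0.99), and the deviations from the group means gave r = 0.97, 0.99 and 0.95 in the same order. The gene rlbp1b encodes a retinaldehyde-binding protein. The transcripts nearest to wisp3 were zgc:109934, si:dkey-154p10.3 and si:dkey-8e10.2, with r = 0.99, 0.87 and 0.86 for the deviations. Those nearest to spred2b were tmem168b, fbxo4 and si:dkey-58f10.10, with r = 0.95 to 0.97 for the deviations. For ccnd1 they were slc25a17, abcc6b.2 and usp48, with lower r for the deviations (0.83, 0.63 and 0.50). For bdnf they were cnga3a, si:dkey-8e10.2 and tbx19 (0.84, 0.75 and 0.83 for the deviations).

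Markers of other cell types could be matched only through the study's list, which was called on these libraries. A difference between the conditions was thus built in for any marker found, and the other blood and liver genes have no value here. Of 9 blood cell genes only mpx, the myeloperoxidase of neutrophils, was matched, with 0.247, 0.771 and 0.320 CPM in basal replicates 1, 2 and 3 and 0.0764, 3.90 and 7.12 CPM with Insl3. The mpx difference was -1.06, 2.23 and 4.17 log2 units in replicates 1, 2 and 3. In replicate 1 it rests on 8 basal and 2 Insl3 counts, so that its direction there is uncertain by counting error. In the same order, fzd8b differed by 1.43, 0.79 and 1.28, wisp3 by 0.66, 0.77 and 0.80 and bdnf by 0.76, 1.03 and 0.96 log2 units. Thus wisp3 and bdnf differed least in replicate 1, where mpx was lower with Insl3 on these few counts, and fzd8b differed most there. The wisp3 differences were nearly equal, and those of bdnf rest on 22 to 67 counts per library, so that the order within either gene carries little. Among the Insl3 libraries, replicate 3 had the highest level of mpx, fzd8b, wisp3 and ccnd1. By contrast, bdnf and spred2b were highest in Insl3 replicate 1 (2.56 and 2.60 CPM), where mpx was lowest. Of 10 liver genes only tfa, the gene of the plasma protein transferrin, was matched, with 65.6, 103 and 463 CPM under basal conditions and 24.5, 56.4 and 6.51 CPM with Insl3. Its difference was -1.42, -0.87 and -6.13 log2 units in replicates 1, 2 and 3. In replicate 3, ccnd1 and spred2b differed least (-0.84 and -0.70), for ccnd1 on 13 basal and 7 Insl3 counts. Without replicate 3 in both groups, an alternative added after the data had been seen, the log2 fold change was -1.59 for ccnd1 and -0.91 for spred2b. Leaving out the pair with the smallest differences enlarges these values by construction, and tfa was lower in replicates 1 and 2 as well. Nothing is therefore read from them. With only mpx and tfa matched, the presence of blood or liver cells in the cultures is not shown. Their part in the differences of the members was not tested.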

How the data were processed

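Total RNA of 6 cultured adult zebrafish testes, 3 basal and 3 Insl3-treated, was made into TruSeq libraries and sequenced as paired-end reads. The authors aligned the reads to GRCz10 with TopHat2 (2.0.12), counted them with HTSeq (0.6.1) and deposited raw counts for each Ensembl transcript. Annotation release, strand setting and counting mode are not given in the sources used here, so reads of overlapping or near-identical transcripts carry an unmeasured uncertainty.

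In edgeR 4.0.16 (R 4.3.3), low counts were removed with filterByExpr (minimum count 10), TMM factors were computed, and condition alone was tested by the two-sided quasi-likelihood test, with Benjamini-Hochberg adjustment, after the scripts had been tested on simulated data. The SE was obtained by dividing the log2 fold change by the root of the F statistic. Differences within replicates use log2 CPM with a prior count of 2. Poisson intervals are exact, at 95%.

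Same-numbered basal and Insl3 libraries correlated in their deviations from the group means (r = 0.73, 0.58 and 0.60 for replicates 1, 2 and 3, over 36363 transcripts), so the numbers were taken to pair the libraries, and a fit with the replicate block is given. With the block the SE was 0.26 for fzd8b, 0.13 for wisp3, 0.28 for bdnf, 0.48 for ccnd1 and 0.22 for spred2b. Without it, as printed with the members, the SE was 0.41, 0.21, 0.34, 0.46 and 0.31 in the same order. The pairing comes from the labels' numbers and this check, since the study's text names none. Alternatives were RLE factors, library totals, DESeq2 (1.42.0), 2 other filters, the block, robust dispersions and each library left out.

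The members and the gene lists were chosen with earlier results of these data known. Genes named are the 5 members, matched transcripts of the lists with an unadjusted p under 0.05 and the 3 nearest transcripts of each member. Other genes of growth signaling (hbegfa, elk1, rasgrp2, tcim, map3k20, stat3, phlpp2 and igf2bp2b) were picked by hand after their values were seen. Symbols came from 409 listed transcripts, of which 408 carry the version of the counts. The rest were not matched to genes here.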

Additional observations from a re-analysis of the deposited data

How the results depend on the processing

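The 5 members kept their direction under all 17 alternatives, which the separation of their groups largely fixes. Their log2 fold changes moved by less than the SD between replicates except for ccnd1 (-1.09 without replicate 2 in both groups, range with libraries left out -1.59 to -1.09). This SD was each gene's own, 0.49 log2 units for fzd8b and 0.25 for ccnd1. The fzd8b log2 fold change ran from 0.87 to 1.45, a wider range than that of ccnd1, so ccnd1 was not the only estimate to shift. The unadjusted count of transcripts, 538 in the edgeR test, was 845 without a filter on low counts, between 170 (without Insl3 replicate 3) and 1472 (without basal replicate 3) with libraries left out, 885 without Insl3 replicate 1 and 257 without replicate 2 in both groups. With the replicate block it was 4920. After adjustment, DESeq2 called 1 transcript. DESeq2 with the replicate block, added after seeing the data, called 3388 of 44942 tested transcripts unadjusted (7.54%). After adjustment it called 490, 1 of them a member (wisp3), and ccnd1 missed the unadjusted threshold. With library totals alone, 21.2% of the called transcripts were higher, against 36.6% with TMM. There bdnf missed the threshold (4 of 5 members called, against 1.48% of all tested transcripts). The replicate block changed no other call of a member. Of the 5 members 1, 0 and 4 were called without replicates 1, 2 and 3 in both groups, against 1.60%, 0.702% and 2.03% of all tested transcripts. These fits, too, tested condition alone. The causes were not tested. The member with the fewest reads was ccnd1, with 5 to 7 counts per Insl3 library.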
